A study of Arabidopsis thaliana with 4 samples.

Results

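Salicylic acid and N-hydroxypipecolic acid are the signals that carry basal and systemic immunity in Arabidopsis thaliana, and 10 genes for their synthesis and its control were followed here in seedlings with lesions in histone-modifying enzymes. The genes were picked out by name or locus, from a list drawn up with earlier results of these data known, and all 10 were found among the 34262 genes of each of 3 tables. Total RNA came from 14-day-old Col-0 plants grown in long days at 22 °C and was sequenced in paired reads of 150 nt. The genotypes were WT (Col-0 with no lesion), hda6 (lesion in a gene for a histone deacetylase), ldl1/2 (lesions in both LDL1 and LDL2, which encode LSD1-like histone demethylases) and hda6/ldl1/2, labelled as their combination. No allele is named in the labels, so whether a line is a null or a point mutant cannot be stated. GEO lists 1 sample per genotype, and the files hold the authors' comparison of each mutant with WT.

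Salicylic acid is made mainly from chorismate in the plastid. ICS1 forms isochorismate, EDS5 exports it to the cytosol, and PBS3 couples it to glutamate, giving a conjugate that breaks down to salicylic acid. N-hydroxypipecolic acid is made from lysine by the aminotransferase ALD1, the reductase SARD4 and the monooxygenase FMO1. SARD1 and CBP60G are related transcription factors that bind promoters of both branches, and EDS1 and PAD4 are lipase-like proteins that form a complex upstream of both.

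The tables give, per gene, the larger of both group means, a log2 fold change of mutant over WT, a p-value and an FDR. The means carry no unit and are taken here as RPKM (reads scaled by exon length and library size). The search for whole-read steps in the low means was set to 3 WT libraries and 2 libraries for each mutant. Low means fell on such steps, with 40.2 to 51.6 M reads a library. Other numbers of libraries were not compared, and the depths and read pairs given rest on this setting and on the RPKM unit. Nothing says whether these libraries came from separate plants, and the p-values may then measure a technical spread. A gene is said to have risen or fallen where the deposited FDR was under 0.05. A standard error (SE) was read back from each p-value as if it came from a two-sided normal test, and a p-value printed as 0 gave an upper bound only. Among the low values, 330 to 375 per group lay at 2 reads and 44 to 74 at 1 read, so a read pair is taken below as the unit of counting. WT means of all 10 genes were read directly, whereas a mutant mean below WT was rebuilt from the fold change. With no values per library, the spread between replicates is not known, and no order of levels between neighbouring genes was tested.

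By the authors' deposited table for ldl1/2, the transcripts of LDL1 and LDL2 fell (log2 fold changes -0.79 and -1.17). In that for the hda6/ldl1/2-labelled samples neither fell (0.05 and -0.32), and HDA6 rose there (0.59) and in hda6 (0.53). RNA alone leaves the state of the protein unknown, and every result on the combined mutant is given for the samples as labelled. Of the tissue markers, the leaf gene RBCS1A had a WT mean of 8385 RPKM and the root gene SCR one of 9.21 RPKM, per the authors' deposited table, while the floral genes AP1, AG and LFY reached at most 0.375 RPKM in any group. In bulk seedlings, fewer cells of a type and less RNA per cell cannot be told apart.

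The 300 bases before the annotated start of each gene were read from the TAIR10.1 genome, whose gene positions matched the tables. The letters TTGAC, the core of the W-box bound by WRKY factors, were searched on both strands, as was GAAATTT, the core of the sequence known to be bound by SARD1 and CBP60G. Of 27443 nuclear protein-coding genes, 50.4% had TTGAC and 14.9% had GAAATTT in this window. TTGAC was present in 4 of the 10 genes (EDS5, SARD1, SARD4 and EDS1) and GAAATTT in 3 others (ICS1, ALD1 and FMO1). The windows of PBS3, CBP60G and PAD4 held neither. The promoters of ICS1, ALD1 and FMO1 are shown because they hold the GAAATTT letters, and that of SARD1 because it held the most TTGAC matches of the 10. Each is written 5′ to 3′ on the gene's own strand, with matches of either motif in capitals.
ICS1 (chr1:28069995-28070294, plus strand): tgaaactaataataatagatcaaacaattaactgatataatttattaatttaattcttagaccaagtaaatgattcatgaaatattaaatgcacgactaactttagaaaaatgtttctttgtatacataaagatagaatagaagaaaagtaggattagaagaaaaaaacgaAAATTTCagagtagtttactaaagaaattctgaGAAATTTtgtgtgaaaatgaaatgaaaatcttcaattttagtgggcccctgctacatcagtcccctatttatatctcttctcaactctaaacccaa
ALD1 (chr2:5768117-5768416, plus strand): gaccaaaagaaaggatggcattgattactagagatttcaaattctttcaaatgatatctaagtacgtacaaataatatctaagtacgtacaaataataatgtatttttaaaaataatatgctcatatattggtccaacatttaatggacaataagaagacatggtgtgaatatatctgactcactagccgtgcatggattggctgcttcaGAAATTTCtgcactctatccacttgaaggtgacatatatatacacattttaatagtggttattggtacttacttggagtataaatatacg
FMO1 (chr1:6653196-6653495, minus strand): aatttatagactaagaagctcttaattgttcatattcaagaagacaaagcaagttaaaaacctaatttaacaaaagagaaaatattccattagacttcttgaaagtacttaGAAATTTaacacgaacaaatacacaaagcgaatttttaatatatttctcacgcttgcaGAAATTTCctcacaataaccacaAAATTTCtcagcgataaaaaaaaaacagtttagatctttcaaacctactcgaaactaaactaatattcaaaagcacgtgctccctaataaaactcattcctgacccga
SARD1 (chr1:27749249-27749548, minus strand): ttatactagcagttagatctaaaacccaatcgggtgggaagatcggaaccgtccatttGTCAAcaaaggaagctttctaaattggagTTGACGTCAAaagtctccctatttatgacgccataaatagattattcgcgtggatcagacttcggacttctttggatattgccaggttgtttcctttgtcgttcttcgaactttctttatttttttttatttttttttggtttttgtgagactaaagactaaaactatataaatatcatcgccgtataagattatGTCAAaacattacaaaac
In SARD1, 4 TTGAC matches began at -242, -213, -208 and -18 from the gene start, and those at -213 and -208 join into TTGACGTCAA. These 2 also overlap TGACG, the core bound by TGA factors, which 21.3% of all promoters and 2 of the 10 genes (SARD1 and EDS1) held. CGCG, the core bound by CAMTA factors, was in 11.8% of all promoters and in the same 2 genes. In FMO1 the matches to GAAATTT began at -189, -131, -130 and -108, where those at -131 and -130 are 1 palindrome read on both strands, as are those of ALD1 at -90 and -89. ICS1 had matches at -129 and -96. The windows of SARD4 and EDS1 overlap a neighbouring gene. A match describes the letters in this window and does not show binding.

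In WT the 10 genes lay within a narrow range of levels per length, from 3.83 to 12.8 RPKM. EDS5 was at 12.8, PAD4 at 11.4, SARD4 at 11.2, EDS1 at 10.5, ICS1 at 10.4 and PBS3 at 9.25 RPKM in WT, per the authors' deposited table. CBP60G stood at 7.07, SARD1 at 5.55, ALD1 at 3.83 and FMO1 at 3.83 RPKM. The enzymes of N-hydroxypipecolic acid synthesis thus stood at both ends, with SARD4 near the top and ALD1 and FMO1 at the bottom.

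**Figure D1:**
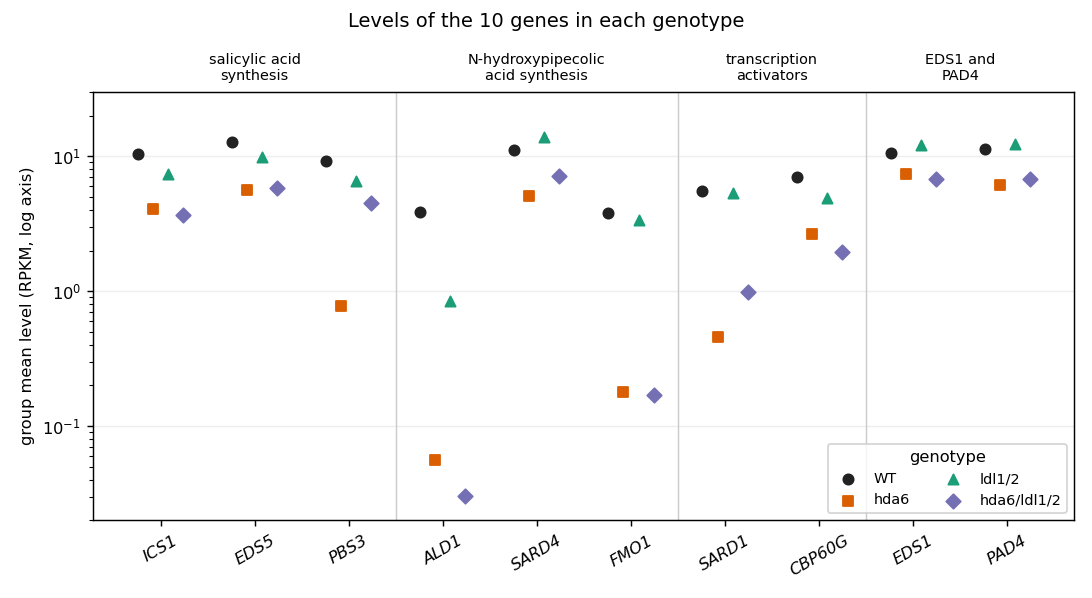
Group mean level of each gene on a log axis in RPKM, by genotype, with no error since values per library were not used here. WT levels span 3.83 to 12.8 RPKM, whereas hda6 levels span 0.0559 (ALD1) to 7.40 RPKM (EDS1).

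All 10 genes fell in hda6 and all 10 in the hda6/ldl1/2-labelled samples, while in ldl1/2 only ALD1 did. Among all genes of at least 1 RPKM, 4.31% fell in hda6, 7.82% in the hda6/ldl1/2-labelled samples and 4.09% in ldl1/2. None of the 10 rose in any comparison, where 4.38%, 9.59% and 4.41% of all genes did in the same order. The median log2 fold change of the 10 was -1.33, -1.19 and -0.31 in hda6, the hda6/ldl1/2-labelled samples and ldl1/2, per the authors' deposited tables, against -0.01 over all genes in each. By size, 8 of the 10 were lower by a log2 fold change of -1 or beyond in hda6 (2.00% of all genes), 6 in the hda6/ldl1/2-labelled samples (2.64%) and 1 in ldl1/2 (1.46%). The comparisons share the WT group, so the 3 values of a gene are not independent. In ldl1/2, 5 of the 10 had an unadjusted p under 0.05, against 18.2% of all genes in either direction, and 7 had a log2 fold change below 0, against 51.6%.

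**Figure D2:**
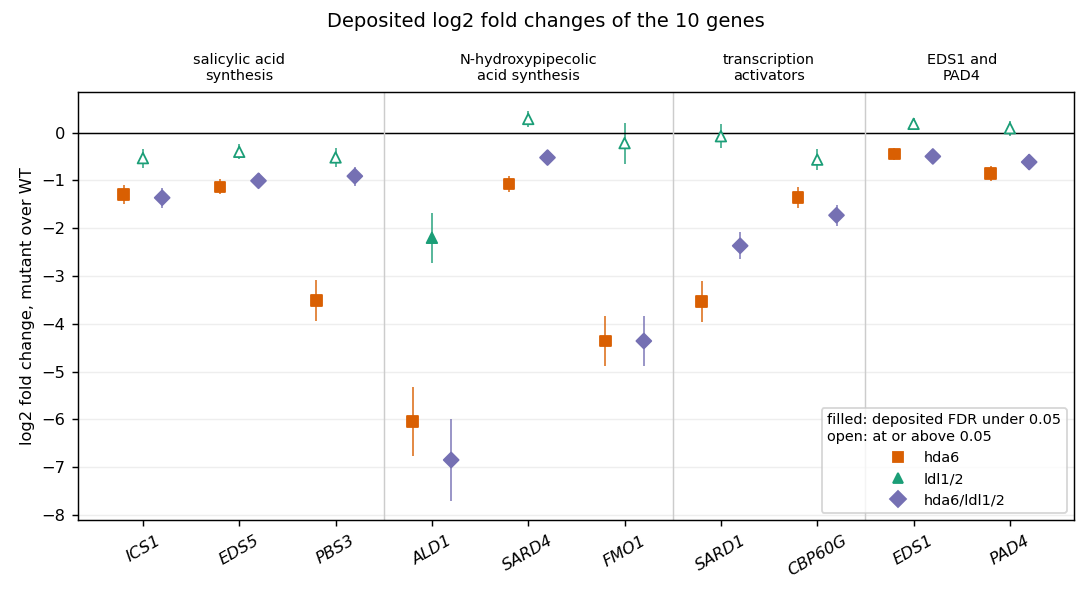
Log2 fold change of mutant over WT, per the authors' deposited tables, with bars of 1 SE implied by the p-value (an upper bound where it was printed as 0). The filled points of hda6 and of hda6/ldl1/2 all lie below 0, and the open points of ldl1/2 lie between -0.57 and 0.28.

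In the salicylic acid branch of hda6, PBS3 had a larger decrease than ICS1 or EDS5. In the hda6/ldl1/2-labelled samples it had the smallest decrease of these 3 genes. The order was not tested. The level of PBS3, whose product couples isochorismate to glutamate, was 9.25 RPKM in WT, 0.779 in hda6, 6.59 in ldl1/2 and 4.49 in the hda6/ldl1/2-labelled samples. It was thus lowest in hda6, and the level in the hda6/ldl1/2-labelled samples lay between those of hda6 and ldl1/2. PBS3 fell 11.4-fold in hda6 by the authors' deposited table (log2 -3.51, SE at most 0.42, FDR printed as 0). It fell 1.88-fold in the hda6/ldl1/2-labelled samples (log2 -0.91, SE 0.20, FDR 0.000154) and stood at -0.52 (FDR 0.135) in ldl1/2, per the authors' deposited table.

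ICS1, the isochorismate synthase that supplies most pathogen-induced salicylic acid, was at 10.4 RPKM in WT, 4.07 in hda6, 7.35 in ldl1/2 and 3.70 in the hda6/ldl1/2-labelled samples. By the authors' deposited table it fell 2.46-fold in hda6 (log2 -1.30, SE 0.20, FDR 1.67e-08) and 2.57-fold in the hda6/ldl1/2-labelled samples (log2 -1.36, SE 0.20, FDR 1.84e-09). EDS5, the transporter, was at 12.8, 5.60, 9.87 and 5.79 RPKM in the same order. It fell in both, with log2 values of -1.13 and -1.01 in hda6 and the hda6/ldl1/2-labelled samples, with an SE of 0.16 in each, per the authors' deposited table. In ldl1/2 neither passed, with log2 values of -0.53 (FDR 0.119) for ICS1 and -0.40 (FDR 0.146) for EDS5, per the authors' deposited table. The 2 genes thus stood at like levels in both mutants that carry the hda6 label.

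The N-hydroxypipecolic acid branch held both the largest decreases and one of the smaller ones. ALD1, which begins the pathway from lysine, was at 3.83 RPKM in WT, 0.0559 in hda6, 0.851 in ldl1/2 and 0.0303 in the hda6/ldl1/2-labelled samples. These levels correspond to about 453 read pairs over the WT group, 4.17 over hda6, 55.4 over ldl1/2 and 2.22 over the hda6/ldl1/2-labelled samples. ALD1 was near the limit of detection in both mutants labelled hda6 and clearly counted in ldl1/2. It fell 65.9-fold in hda6 and 115-fold in the hda6/ldl1/2-labelled samples, per the authors' deposited table, where counting error alone (95% Poisson interval) spans 26.8- to 252-fold and 35.4- to 1057-fold. In ldl1/2 it also fell (log2 -2.20, SE 0.53, FDR 0.00120), per the authors' deposited table.

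FMO1, which hydroxylates pipecolic acid, was at 3.83 RPKM in WT, 0.179 in hda6, 3.36 in ldl1/2 and 0.170 in the hda6/ldl1/2-labelled samples. By the authors' deposited table it had log2 values of -4.36 in both hda6 and the hda6/ldl1/2-labelled samples and fell in each, with an SE of at most 0.53. These rest on about 16.3 and 15.2 read pairs, and counting error alone spans 12.9- to 36.6-fold and 12.6- to 37.2-fold. In ldl1/2 FMO1 stood at -0.22 (SE 0.43, FDR 1.00), per the authors' deposited table, next to the ALD1 decrease there. The difference between these 2 genes in ldl1/2 was not tested.

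SARD4, the reductase that finishes pipecolic acid, was at 11.2 RPKM in WT, 5.11 in hda6, 14.0 in ldl1/2 and 7.12 in the hda6/ldl1/2-labelled samples. By the authors' deposited table it fell 2.11-fold in hda6 (log2 -1.08, SE 0.16, FDR 5.87e-09) and 1.44-fold in the hda6/ldl1/2-labelled samples (log2 -0.52, SE 0.16, FDR 0.0153). In ldl1/2 it had a log2 value of 0.28 (FDR 0.542), per the authors' deposited table. It was the gene of the branch with the most RNA left in both mutants labelled hda6.

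The activators fell unequally. SARD1 was at 5.55 RPKM in WT, 0.460 in hda6, 5.38 in ldl1/2 and 0.981 in the hda6/ldl1/2-labelled samples, so that its ldl1/2 level lay close to that of WT. SARD1 fell 11.6-fold by the authors' deposited table in hda6 (log2 -3.54, SE at most 0.43) and 5.17-fold in the hda6/ldl1/2-labelled samples (log2 -2.37, SE at most 0.29). Its value in ldl1/2 was -0.08 (SE 0.25), per the authors' deposited table. CBP60G, a calmodulin-binding relative of SARD1, was at 7.07, 2.65, 4.88 and 1.95 RPKM in WT, hda6, ldl1/2 and the hda6/ldl1/2-labelled samples. It fell 2.56-fold in hda6 (log2 -1.36, SE 0.22, FDR 4.69e-08) and 3.32-fold in the hda6/ldl1/2-labelled samples (log2 -1.73, SE 0.22, FDR 6.54e-13), per the authors' deposited table. In ldl1/2 CBP60G stood at -0.57 (FDR 0.127), per the authors' deposited table. Of the 5 other CBP60 genes (CBP60B to CBP60F), none fell in any comparison. Only CBP60F, by 0.54 (FDR 0.0447) in the hda6/ldl1/2-labelled samples, rose, per the authors' deposited table.

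EDS1 and PAD4 changed least in hda6. EDS1 was at 10.5 RPKM in WT, 7.40 in hda6, 12.2 in ldl1/2 and 6.79 in the hda6/ldl1/2-labelled samples. By the authors' deposited table it fell in hda6 (log2 -0.45, SE 0.12, FDR 0.00453) and in the hda6/ldl1/2-labelled samples (log2 -0.50, SE 0.12, FDR 0.000654). PAD4 was at 11.4, 6.07, 12.4 and 6.78 RPKM in the same order. It fell 1.80-fold (log2 -0.85, SE 0.16) and 1.53-fold (log2 -0.62, SE 0.16) in hda6 and the hda6/ldl1/2-labelled samples, per the authors' deposited table. In ldl1/2 the log2 values were 0.18 for EDS1 (FDR 0.694) and 0.09 for PAD4 (FDR 1.00), per the authors' deposited table. EDS1B, the neighbouring copy of EDS1, aligned to its exons at 81.1 to 85.4% identity, and the handling of reads that match both copies is not stated in the labels. EDS1B fell by 0.95 (FDR 0.0137) in hda6 and was at 0.71 (FDR 0.127) in ldl1/2, per the authors' deposited table.

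The mutants that carry the hda6 label were then set side by side, which takes the shared WT out of the comparison. The log2 fold change of PBS3 was 2.60 higher in the hda6/ldl1/2-labelled samples than in hda6 (SE at most 0.47), and its rebuilt level was 5.77-fold higher. That of SARD1 was 1.17 higher (SE at most 0.51) and that of SARD4 0.55 higher (SE at most 0.23). CBP60G was 0.37 lower (SE at most 0.31). PAD4 differed by about its SE bound, and the other 5 by less than theirs. FMO1 differed by 0.00 with a bound of 0.74, and ALD1 by -0.81 with a bound of 1.12, so these low counts leave room for a sizeable difference. Of 18826 genes of at least 1 RPKM in both comparisons, 1.56% were higher by a log2 difference of 1 or more in the hda6/ldl1/2-labelled samples than in hda6, and 2 of the 10 (PBS3 and SARD1) were. Lower by as much were 1.31% of all genes and none of the 10. Counting PBS3, 23 genes were higher in the hda6/ldl1/2-labelled samples than in hda6 by at least its difference. No difference between mutants was tested, since the tables used here give 1 value per comparison.

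**Figure D3:**
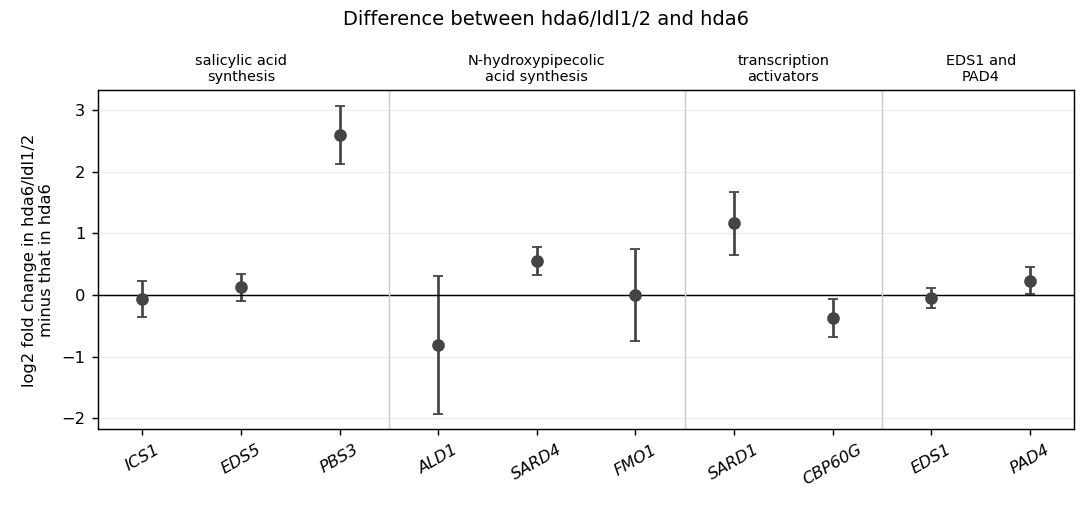
Log2 fold change in hda6/ldl1/2 minus that in hda6 for each gene, with bars of the largest SE that the deposited p-values allow. PBS3 lies at 2.60 and SARD1 at 1.17, and the bars of ICS1, EDS5, ALD1, FMO1 and EDS1 cross 0.

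The log2 values of hda6 and ldl1/2 were also added and set beside the value of the hda6/ldl1/2-labelled samples. For PBS3 the sum was -4.03 and the observed value -0.91. For SARD1 they were -3.61 and -2.37, and for ALD1 -8.24 and -6.85. The observed ALD1 value rests on 2.22 read pairs (95% Poisson interval 0.24 to 7.2), so its gap lies near the limit of detection. For the other 7 the observed value lay within 0.53 of the sum. Their ldl1/2 values were small themselves, the largest in size being -0.57 for CBP60G. A gap of this size therefore cannot tell the sum from the hda6 value alone. For ICS1 the observed value was -1.36, the sum -1.84 and the hda6 value -1.30. The sum counts the WT group once more than the observed value does, and the gap was not tested.

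**Figure D4:**
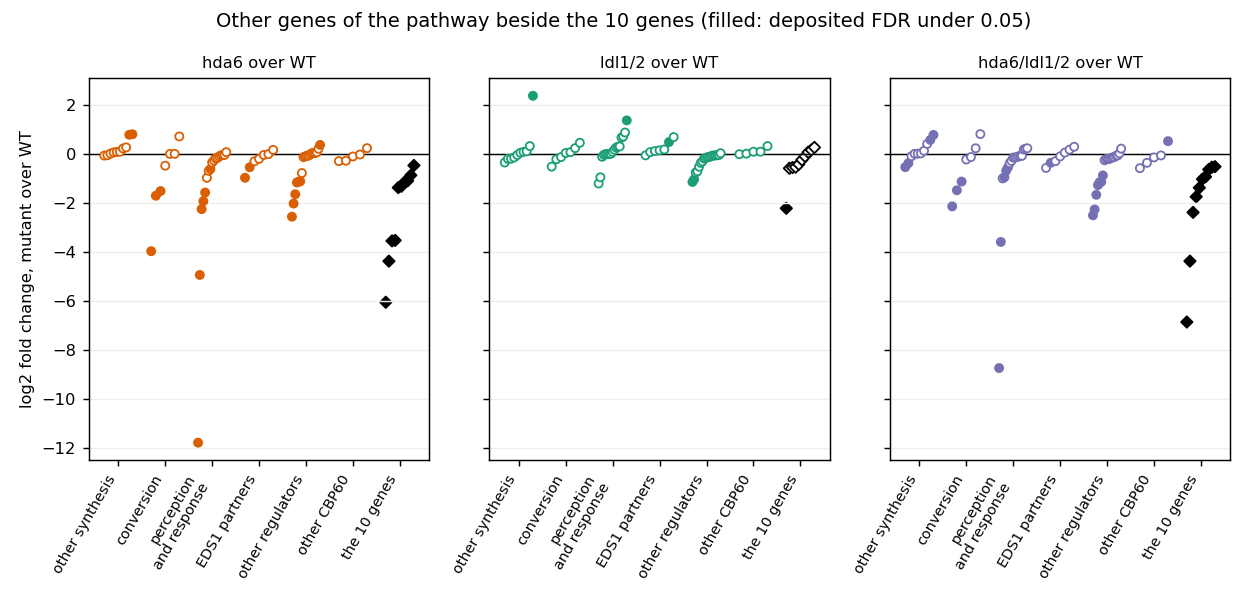
Log2 fold change, per the authors' deposited tables, for the measured genes of 6 related lists and for the 10 genes (black), with 1 panel per mutant. The deepest points outside the 10 are PR1 at -11.78 in hda6 and -8.73 in hda6/ldl1/2, whose counting error was not computed.

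Of 65 further genes of the pathway, 64 were measured at 1 RPKM or more, and 17 fell and 3 rose in hda6, 18 fell and 3 rose in the hda6/ldl1/2-labelled samples, and 2 fell and 3 rose in ldl1/2. Their medians were -0.08, -0.13 and 0.01, per the authors' deposited tables. Of all genes of at least 1 RPKM, 4.31% fell and 4.38% rose in hda6. In the hda6/ldl1/2-labelled samples 7.82% fell and 9.59% rose, and in ldl1/2 4.09% fell and 4.41% rose. The counts that rose, and both counts in ldl1/2, were thus near or below the shares of all genes. The same shares stand beside the counts per list below. The decreases were unevenly spread over the lists.

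Of the 10 other synthesis genes none fell in hda6 and 2 rose there. These are PAL3 and PAL4 (0.80 and 0.82, per the authors' deposited table), which encode phenylalanine ammonia-lyases of the alternative route to salicylic acid. ICS2, the second isochorismate synthase, was at -0.03 in hda6, and rose by 2.40 in ldl1/2, to 15.9 RPKM, and by 0.80 in the hda6/ldl1/2-labelled samples, per the authors' deposited table. In ldl1/2 the ICS1 and ICS2 values thus had opposite signs, although that of ICS1 did not pass. PAL1 fell by 0.52 in the hda6/ldl1/2-labelled samples, per the authors' deposited table, and PAL2 fell by 0.36. EPS1, which speeds the breakdown of the PBS3 product, passed in no comparison.

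Of the 7 measured genes that convert the finished signals, 3 fell in hda6 and the same 3 in the hda6/ldl1/2-labelled samples, and none changed in ldl1/2. S3H and S5H, which hydroxylate salicylic acid, fell in both, with -3.96 and -1.69 in hda6 and -2.12 and -1.11 in the hda6/ldl1/2-labelled samples, per the authors' deposited table. UGT76B1, a glucosyltransferase of salicylic and N-hydroxypipecolic acid, fell in both, with -1.46 in the hda6/ldl1/2-labelled samples, per the authors' deposited table. UGT74F1, which also glucosylates salicylic acid, stood at 0.74 in hda6 (FDR 0.0960), per the authors' deposited table.

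Among 17 perception and response genes, 6 fell in hda6, 5 in the hda6/ldl1/2-labelled samples and none in ldl1/2. The receptor gene NPR1 stood at -0.08, 0.19 and -0.06 in hda6, ldl1/2 and the hda6/ldl1/2-labelled samples, per the authors' deposited table, and passed in none. NPR3, for a related receptor, fell in both, with -0.60 in hda6 and -0.53 in the hda6/ldl1/2-labelled samples, per the authors' deposited table. NIMIN1, for an NPR1-binding repressor, fell by 2.23 in hda6, per the authors' deposited table, and was at -0.98 (FDR 0.134) in the hda6/ldl1/2-labelled samples. PR1 fell, with -11.78 and -8.73 in hda6 and the hda6/ldl1/2-labelled samples, per the authors' deposited table, as did PR2 with -4.93 and -3.58. Read pairs were not computed for PR1, so how far counting error limits its values is not known. PR5 passed in no comparison. It stood at -0.96 (FDR 0.0545) in hda6, 0.33 in ldl1/2 and -0.13 in the hda6/ldl1/2-labelled samples, per the authors' deposited table. WRKY70 fell, with -1.91 in hda6 and -0.94 (FDR 0.0382) in the hda6/ldl1/2-labelled samples, and was at 0.69 (FDR 0.333) in ldl1/2, per the authors' deposited table. WRKY54, which restrains salicylic acid synthesis, rose by 1.39 (FDR 0.00189) in ldl1/2, per the authors' deposited table.

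Of 7 EDS1 partners and helper receptors, 2 fell in hda6 (EDS1B and ADR1-L1, the latter by 0.52, per the authors' deposited table), 1 fell in the hda6/ldl1/2-labelled samples (ADR1-L2, by 0.34) and 1 rose in ldl1/2 (NRG1.2, by 0.50). SAG101, the alternative partner of EDS1, stood at -0.02, 0.09 and 0.20 in hda6, ldl1/2 and the hda6/ldl1/2-labelled samples, per the authors' deposited table. Of 18 other regulators of the synthesis genes, 6 fell and 1 rose in hda6, 7 fell in the hda6/ldl1/2-labelled samples and 2 fell in ldl1/2. WRKY46, an activator, fell, with -2.01 and -2.25 in hda6 and the hda6/ldl1/2-labelled samples, per the authors' deposited table. WRKY40, a repressor, fell in all 3, with -1.63, -1.02 and -2.49 in hda6, ldl1/2 and the hda6/ldl1/2-labelled samples, per the authors' deposited table. NAC019, known to repress ICS1, fell, with -2.54 and -1.65 in hda6 and the hda6/ldl1/2-labelled samples, per the authors' deposited table, so activators and repressors were both among the genes that fell. CHE, a clock-linked activator of ICS1, was the regulator that rose in hda6, by 0.39 (FDR 0.0163), per the authors' deposited table. CAMTA1, CAMTA2 and CAMTA3, of which CAMTA3 represses the pathway, passed in no comparison.

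Some markers of tissue and senescence also changed, not all in the direction of the 10 genes. The leaf genes LHCB1.1 and LHCB2.1 rose by 1.11 and 1.26 in hda6 and by 1.00 and 1.18 in the hda6/ldl1/2-labelled samples, and fell in ldl1/2, with -1.02 and -0.72, per the authors' deposited table. RBCS1A passed in none, so 2 of the 3 leaf markers moved. Of the 3 root markers, CASP1 and PHT1;1 fell, with -1.18 and -0.99, in the hda6/ldl1/2-labelled samples, per the authors' deposited table, and none passed in hda6 or ldl1/2. The senescence and defence marker SAG13 fell, with -7.31 in hda6 and -4.54 in the hda6/ldl1/2-labelled samples, per the authors' deposited table. SAG12, specific to senescing leaves, was listed at 0 in the hda6 and hda6/ldl1/2 tables and reached 1.77 RPKM in ldl1/2 (FDR 0.00293, per the authors' deposited table). The part of leaf, root or senescence state in the values of the 10 genes was not tested.

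**Figure D5:**
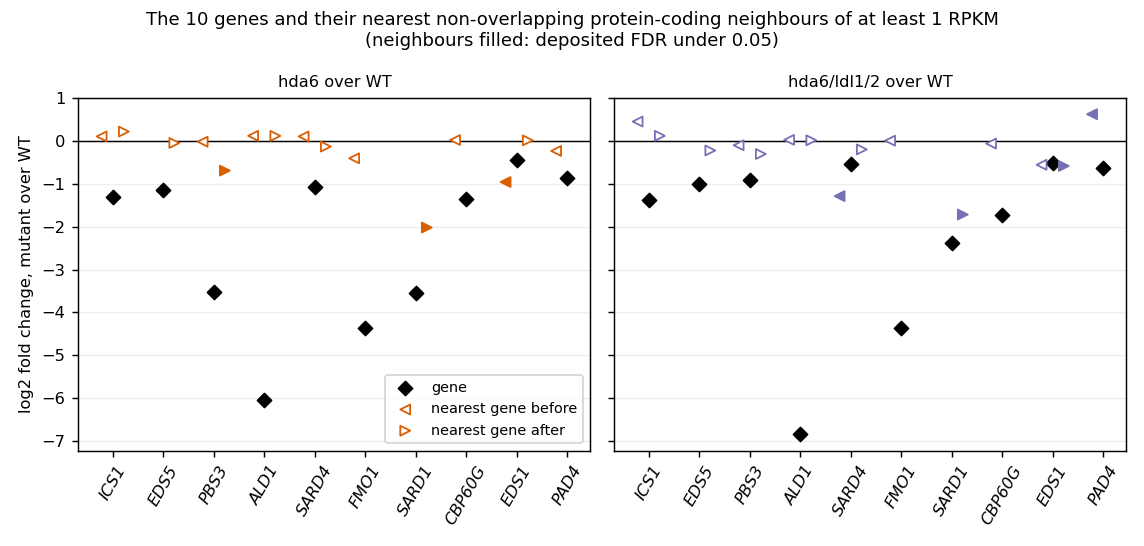
Log2 fold change, per the authors' deposited tables, of the 10 genes (black) and of their nearest non-overlapping protein-coding neighbours of at least 1 RPKM, for hda6 and hda6/ldl1/2, before and after in map order. Most neighbours lie near 0, and AT1G73810 beside SARD1 lies at -2.02 and -1.71.

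The 10 genes lie apart from each other on all 5 chromosomes, and their neighbours were examined next. Another protein-coding gene overlaps 3 of them. AT1G73790 on the opposite strand shares 640 nt with SARD1, AT4G39040 on the opposite strand 213 nt with EDS5, and AT5G52800 on the same strand 89 nt with SARD4. Whether counting used strand is not stated in the labels, so reads from these stretches cannot be assigned with certainty. In hda6 AT1G73790 stood at 0.14 (9.80 RPKM), AT4G39040 at 0.15 (75.0 RPKM) and AT5G52800, below 1 RPKM in each table, at -0.42, per the authors' deposited table. The first 2 passed in no comparison. The nearest protein-coding gene on each side that does not overlap lay 29 to 11063 nt away. Of the 20 neighbours 15 were measured at 1 RPKM or more, and of these 3 fell in hda6, 3 fell and 1 rose in the hda6/ldl1/2-labelled samples, and none changed in ldl1/2. Of all genes of at least 1 RPKM, 4.31% fell in hda6, and 7.82% fell and 9.59% rose in the hda6/ldl1/2-labelled samples. The neighbours had medians of -0.01, -0.10 and -0.02 in hda6, the hda6/ldl1/2-labelled samples and ldl1/2. AT1G73810, 3093 nt from SARD1 on its upstream side, fell, with -2.02 in hda6 (FDR 9.92e-08) and -1.71 in the hda6/ldl1/2-labelled samples (FDR 6.69e-06), per the authors' deposited table, and stood at -0.04 in ldl1/2. Rap2.6L, an ethylene response factor gene 665 nt downstream of PBS3, fell by 0.69 (FDR 0.0219) in hda6, per the authors' deposited table, and EDS1B was the third neighbour that fell there. The neighbours of ALD1, SERK5 at 0.13 and XYP2 at 0.12 in hda6, per the authors' deposited table, passed in no comparison.

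On TAIR10.1, ICS1 (AT1G74710, listed in the tables as EDS16) spans chromosome 1, 28070295 to 28074177, PBS3 (AT5G13320) chromosome 5, 4267456 to 4271064, and EDS5 (AT4G39030, listed as DTX47) chromosome 4, 18185437 to 18189224. ALD1 (AT2G13810) spans chromosome 2, 5768417 to 5772266, SARD4 (AT5G52810) chromosome 5, 21399331 to 21400686, and FMO1 (AT1G19250) chromosome 1, 6650476 to 6653195. SARD1 (AT1G73805) spans chromosome 1, 27744790 to 27749248, CBP60G (AT5G26920) chromosome 5, 9475679 to 9478777, EDS1 (AT3G48090) chromosome 3, 17755329 to 17758147, and PAD4 (AT3G52430) chromosome 3, 19431095 to 19434450. All are protein-coding, and SARD4 is the only one annotated with a single exon. Outside their own loci, 2 of the 10 had stretches of at least 100 nt and 90% identity in the nuclear genome, PAD4 over 324 nt and ICS1 over 126 and 122 nt of exon, so reads from these stretches may be shared.

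Genes near the median pattern of the 10 were sought among 18585 other genes of at least 1 RPKM in each comparison. The measure was the Euclidean distance of their 3 log2 fold changes from the medians of the 10. The nearest was ROS1, a DNA demethylase gene, at a distance of 0.13, with -1.46 in hda6, -0.32 in ldl1/2 and -1.18 in the hda6/ldl1/2-labelled samples, per the authors' deposited table. AT1G72900 and AT4G10265 followed at 0.17 each, then GSTF13, a glutathione transferase gene, at 0.22 and AT1G53625 at 0.23. The measure rests on 3 comparisons that share WT. The 10 genes themselves spread widely around their medians, from -6.04 to -0.45 in hda6, so nearness to the medians is not likeness to each of them.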

How the data were processed

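RNA-seq of 4 Arabidopsis genotypes was used, 1 sample each in GEO. Bowtie and the TAIR10 build are listed, with no role, per the submitters' processing notes. The expression tool, the counting of shared reads, strand and the authors' test are not given in the sources used here. The authors deposited 3 tables of their own comparisons. The deposited group means are taken as RPKM, a unit not given with them. Of the low means, 98.8 to 99.6% fell on whole-read steps within 0.3%. Any scaling by exon length and a constant per library would give such steps, so they cannot tell RPKM from other units of that kind. The number of libraries per group was set for this search and not estimated. The deposited log2 fold change and signed fold change carry a scaling of their own, so the log2 ratio of RPKM means differs from them by -0.06, 0.03 and -0.13 in hda6, ldl1/2 and hda6/ldl1/2. Rebuilt mutant means use these offsets. The deposited p-value and FDR were used as given. Recomputing Benjamini-Hochberg values on 34262 rows, of which 9357 lack a fold change, gave the deposited FDR with differences of at most 9.13e-05. Rows were matched by position to TAIR10.1, 33349 of them to a single gene, and all 19519 comparable locus names were equal.

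Genes with a larger mean of at least 1 RPKM were kept, and all 10 genes passed. The design had planned the deposited FDR and a size rule of 1 (log2), with no test between samples. Named genes were the 10, up to 4 per pathway list by size with any going against it, the nearest neighbours that do not overlap, the 5 most alike and the targeted genes. Others, including the overlapping genes, NPR1, NPR3, PR5, SAG101, EPS1 and the CAMTA genes, were named after their values were seen. The genes and lists were chosen with earlier results of these data known. Read pairs over a group were computed from RPKM, exon length and depth, and intervals (95%, exact Poisson) cover counting error only. Alternatives were a pseudocount of 1, centring, RPKM ratios (added after seeing the data), other filters and thresholds. Scripts for depth and SE were tested on simulated data. Python 3.11.15, numpy 2.4.6, pandas 2.3.3, scipy 1.17.1, matplotlib 3.10.9 and BLAST+ 2.17.0 were used.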

Additional observations from a re-analysis of the deposited data

How the results depend on the processing

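The number of the 10 genes that fell was the same at an FDR adjusted over genes of at least 1 RPKM alone (10 in hda6, 10 in the samples labelled hda6/ldl1/2, 1 in ldl1/2). At an FDR of 0.01 it was 10, 9 and 1, SARD4 being lost in the samples labelled hda6/ldl1/2. By the size rule, the count in ldl1/2 was 0 with a filter of 5 RPKM, since ALD1 has a mean below it, and ranged over 6 to 9 in hda6 and 4 to 8 in the samples labelled hda6/ldl1/2 under all alternatives run. A pseudocount of 1 moved the hda6 median from -1.33 to -1.11 and the ALD1 value from -6.04 to -2.19, since low levels weigh less on that scale. No value of the 10 genes changed sign under the pseudocount, centring on all genes or the ratio of RPKM means, and 10 of 30 moved beyond the median SE, all under the pseudocount. ALD1 in hda6 and in the samples labelled hda6/ldl1/2 rests on 4.17 and 2.22 read pairs, so its depth sets the limit there. No paired analysis was possible because the tables hold no values per library and the labels give no replicate numbers. For the same reason no replicate could be left out.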
